A study of Mus musculus with 8 samples.

Results

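Cathepsins are the proteases of the lysosome. The 9 cathepsin genes described here (Ctsa, Ctsb, Ctsc, Ctsd, Ctsh, Ctsk, Ctsl, Ctss and Ctsz) were found by their symbols in the feature list shared by all 8 libraries, where each names 1 of 56749 features. They are spread over chromosomes 2 (Ctsa and Ctsz), 3 (Ctsk and Ctss, which are neighbours), 7 (Ctsc and Ctsd), 9 (Ctsh), 13 (Ctsl) and 14 (Ctsb) in RefSeq's annotation. The gene identifiers of the members that moved most are ENSMUSG00000021477 for Ctsl, ENSMUSG00000028111 for Ctsk and ENSMUSG00000007891 for Ctsd. Their RNA was followed through macrophage-like nuclei, 2 subsets of those nuclei, and the other classes of nuclei in visceral white adipose tissue of mice. The libraries are single-nucleus libraries of 8 mice in 4 groups of 2, and all mice carried 1 p21 allele with a knocked-in cassette, so that no group is wild type. The first group, p21+/mCherry on a standard diet, is called mCherry SD (mice rep144 and rep146 of the labels). The second has the same genotype on a high-fat diet and is called mCherry HFD (mice rep128 and rep129). Tert HFD mice (rep134 and rep136) are p21+/mCherry-Tert and TertCi HFD mice (rep138 and rep140) are p21+/mCherry-TertCi, both on the high-fat diet. By the series' design text the p21 promoter drives the Tert forms, so the cassette is active where p21 is, and not in 1 cell type alone. That text names stromal vascular cells and p21+/- mice, where the sample labels name visceral white adipose tissue and p21+/mCherry mice. The labels are followed here. The sources used here do not spell out how TertCi differs from Tert, and give no age or sex. Neither Tert form was studied on the standard diet. The title of the series names telomerase, obesity, adipocyte formation and macrophages as its subject. Values of a group's mice are given below in the order of mouse numbers just listed.

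Cathepsins are made as inactive precursors, carried to endosomes and lysosomes largely by mannose phosphate receptors, and activated there by acid and by each other. Ctsb, Ctsl, Ctss and Ctsk encode cysteine proteases that cut within proteins. Cathepsin S trims the invariant chain of MHC class II in antigen-presenting cells, and cathepsin K is the collagen-degrading enzyme of osteoclasts. Ctsc, Ctsh and Ctsz encode cysteine exopeptidases, of which cathepsin C also activates the serine proteases of immune granules. Ctsd encodes an aspartic protease, and Ctsa a serine carboxypeptidase that protects beta-galactosidase and neuraminidase in the lysosome. In obese adipose tissue, macrophages with large lysosomes gather around dying adipocytes and take up their lipid (lipid-associated macrophages). Other macrophages lie along vessels in lean tissue too (perivascular macrophages).

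The files hold unique molecular identifier (UMI) counts, and 30209 nuclei were kept, 1978 to 7433 per library, with a median of 1682 to 7133.5 UMIs per nucleus in a library. Levels are given in CPM, the UMI counts of a mouse's nuclei of a class summed and scaled to a total of 1000000, so depth is scaled out but sampling error is not. The counts gave no support to the genotype labels: mCherry had 0 to 10 UMIs per library, and Tert was lower, not higher, in all 4 libraries labelled Tert or TertCi. It stood at 2.35 and 1.44 CPM in those labelled Tert HFD, 2.49 and 2.76 CPM in those labelled TertCi HFD, and 3.56 to 3.88 CPM in the 4 mCherry libraries, over all nuclei. Whether 3′ tags of the cassette's RNA would be counted as Tert is not given in the sources used here. Groups are named as labelled throughout, and every direction for Tert or TertCi rests on those labels. Macrophage-like nuclei numbered 91 and 147 in mCherry SD mice, 3707 and 1408 in mCherry HFD mice, 843 and 802 in Tert HFD mice, and 956 and 247 in TertCi HFD mice. In this class the standard-diet values therefore rest on the fewest nuclei. Summed macrophage markers were present at 1704 to 1892, 2328 to 2432, 1436 to 2263 and 1693 to 2096 CPM in these nuclei in the same group order. The mice of a group are separate animals, but each comparison has 2 mice on a side, and the batch in which a mouse was processed is not given in the sources used here. All 4 comparisons are parts of 1 fit, and the diet comparison and both comparisons with Tert forms use the same 2 mCherry HFD mice, so a high or low value in these mice moves all of them.

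In macrophage-like nuclei of mCherry mice, 7 of 9 cathepsins rose on the high-fat diet, Ctsc fell, and Ctsh did not pass the test. Against mCherry HFD mice, 4 of 9 cathepsins fell in Tert HFD mice. In TertCi HFD mice 7 fell and Ctsc rose. Called means an adjusted p under 0.05 in the quasi-likelihood test of edgeR, adjusted by Benjamini and Hochberg over all 13244 genes tested. In these nuclei 20.5% of all genes tested were called for diet, 17.3% for Tert and 23.7% for TertCi, in either direction. The median log2 fold change of the 9 cathepsins was 1.29 for diet, -0.49 for Tert and -1.13 for TertCi, where the medians of all genes tested were 0.11, -0.05 and -0.08. Markers of the macrophage subsets moved with these groups: lipid-associated markers summed to 430 to 602 CPM in mCherry SD, 4736 to 5378 CPM in mCherry HFD, 1974 to 2318 CPM in Tert HFD and 1571 to 1767 CPM in TertCi HFD mice, so the levels within each subset are given separately after those of the whole class. Adipocyte markers in these nuclei summed to 250 to 511, 57.9 to 115, 211 to 283 and 208.5 to 305.5 CPM in the same group order, lowest in mCherry HFD mice. Progenitor markers summed to 192 to 196, 324 to 684.5, 149 to 211 and 89.1 to 133 CPM, highest in mCherry HFD mice. The part of either in the result was not tested.

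**Figure D1:**
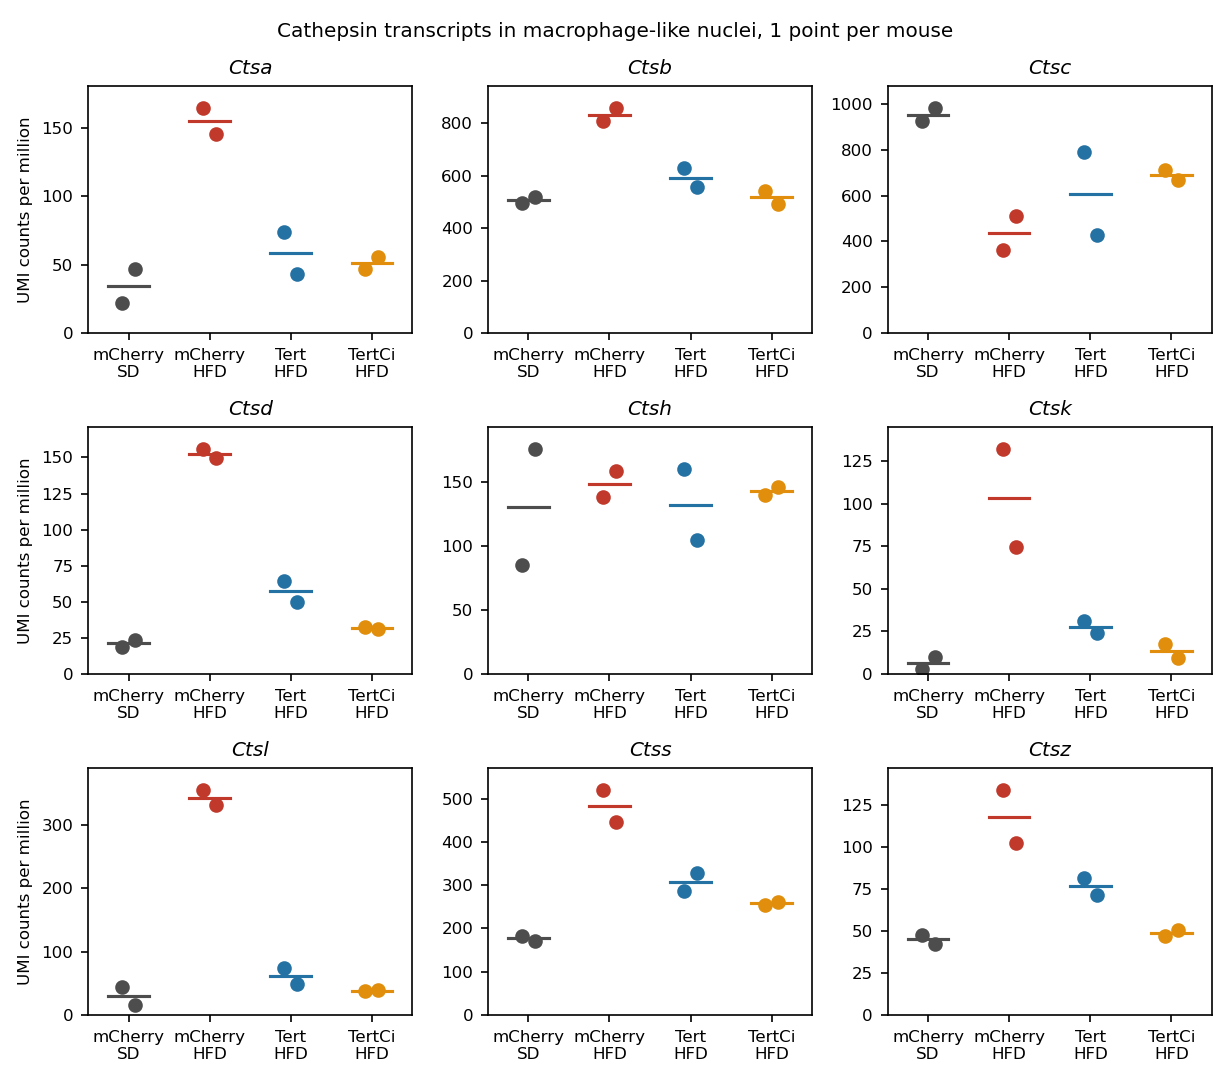
Level of each cathepsin in macrophage-like nuclei, in CPM on a linear axis from 0 that differs between genes, with 1 point for each of the 8 mice and a line at each group's mean. Ctsl, Ctsk and Ctsd lie highest in both mCherry HFD mice, Ctsc lies highest in both mCherry SD mice, and the groups overlap for Ctsh.

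Among the endopeptidases, Ctsl had the largest fitted falls with both Tert forms. It stood at 44.3 and 16.1 CPM in mCherry SD mice, 355 and 332 CPM in mCherry HFD mice, 74.1 and 49.3 CPM in Tert HFD mice, and 37.5 and 38.8 CPM in TertCi HFD mice. Both mCherry HFD mice were above every other mouse, and the TertCi HFD mice lay within the range of the standard-diet mice. Ctsl was 11.9-fold higher on the high-fat diet (log2 fold change 3.57, SE 0.32, edgeR adjusted p = 1.99e-05). It was 4.93-fold lower in Tert HFD mice (-2.30, SE 0.23, edgeR adjusted p = 0.000205) and 8.07-fold lower in TertCi HFD mice (-3.01, SE 0.25, edgeR adjusted p = 3.59e-05). These 3 calls held under all 17 alternatives tried, but the standard-diet side holds 25 Ctsl UMIs, and the diet difference ran from 2.76 to 4.26 when single mice were left out.

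Ctsk, the collagenase of osteoclasts, was also highest in the mCherry HFD mice. Its level was 3.16 and 10.2 CPM in mCherry SD mice, from 1 and 7 UMIs. It was 132 and 74.7 CPM in mCherry HFD mice, 31.1 and 24.3 CPM in Tert HFD mice, and 17.8 and 9.43 CPM in TertCi HFD mice. The mCherry HFD mice were again above all others, although they differed between themselves more than for Ctsl. The fitted diet difference was 11.9-fold (log2 fold change 3.57, SE 0.50, edgeR adjusted p = 0.000432), and with so few standard-diet UMIs its size is loosely set: it ran from 3.07 to 4.84 on the log2 scale with single mice left out. Ctsk was 3.35-fold lower in Tert HFD mice (-1.74, SE 0.30, edgeR adjusted p = 0.00281) and 6.16-fold lower in TertCi HFD mice (-2.62, SE 0.33, edgeR adjusted p = 0.000352). Without mouse rep128 the Tert difference of Ctsk was no longer called, the edgeR adjusted p being 0.0582.

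Ctss, the protease of MHC class II loading, and Ctsb moved less. Ctss stood at 183 and 171 CPM in mCherry SD mice, 519 and 445 CPM in mCherry HFD mice, 287 and 328 CPM in Tert HFD mice, and 254 and 261 CPM in TertCi HFD mice. No mouse on the high-fat diet reached down to the standard-diet mice, and no mouse with a Tert form reached up to the mCherry HFD mice. Ctss rose with diet (1.29, SE 0.19, edgeR adjusted p = 0.000598) and fell with TertCi (-0.74, SE 0.17, edgeR adjusted p = 0.00895), while the Tert difference was -0.49 (SE 0.17, edgeR adjusted p = 0.0629). Ctsb stood at 496 and 518.5 CPM in mCherry SD mice, 810 and 857 CPM in mCherry HFD mice, 630 and 557 CPM in Tert HFD mice, and 544 and 492.5 CPM in TertCi HFD mice. Its groups were ordered like those of Ctss with smaller steps: 0.56 for diet (SE 0.14, edgeR adjusted p = 0.0153) and -0.51 for TertCi (SE 0.13, edgeR adjusted p = 0.0164), both called, and -0.33 for Tert (edgeR adjusted p = 0.105). The diet call of Ctsb was lost without any 1 of the 4 mCherry mice, with log2 fold changes from 0.52 to 0.56. The TertCi call of Ctsb was lost without rep138, rep140, rep128 or rep129, and that of Ctss without rep138, rep140 or rep128, the differences ranging from -0.58 to -0.40 and from -0.87 to -0.61 over single mice left out.

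Among the exopeptidases, Ctsc went the other way. It stood at 923 and 980 CPM in mCherry SD mice, 364 and 512 CPM in mCherry HFD mice, 790 and 426 CPM in Tert HFD mice, and 713 and 667.5 CPM in TertCi HFD mice. The standard-diet mice were highest, the TertCi HFD mice lay wholly above the mCherry HFD mice, and mouse rep136 of Tert HFD overlapped them. Ctsc fell on the high-fat diet (-1.28, SE 0.22, edgeR adjusted p = 0.00172) and was higher in TertCi HFD mice (0.83, SE 0.21, edgeR adjusted p = 0.0152). The Tert difference of 0.61 (SE 0.21) was not called (edgeR adjusted p = 0.0661). The TertCi call of Ctsc was lost without mouse rep138 or without mouse rep128, where the difference lay between 0.61 and 1.06, and when libraries were scaled by their totals alone. Ctsh, an aminopeptidase, ranged from 85.4 to 176 CPM over the 8 mice. Its 2 standard-diet mice spanned nearly that whole range, its differences were -0.04, -0.00 and 0.12 for diet, Tert and TertCi, and none was called.

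Ctsz, a carboxypeptidase, stood at 47.4 and 42.5 CPM in mCherry SD mice, 133 and 102 CPM in mCherry HFD mice, 81.7 and 71.2 CPM in Tert HFD mice, and 47.0 and 50.3 CPM in TertCi HFD mice. It rose with diet (1.27, SE 0.24, edgeR adjusted p = 0.00303) and fell with TertCi (-1.13, SE 0.19, edgeR adjusted p = 0.00184). In Tert HFD mice it differed by -0.48 (SE 0.18, edgeR adjusted p = 0.0920). The diet call of Ctsz was lost without mouse rep146 and the TertCi call without mouse rep138, and the left-out differences ran from 1.02 to 1.45 and from -1.33 to -0.91. With nuclei thinned to 1000 UMIs the diet difference of Ctsz was 0.87 and not called (edgeR adjusted p = 0.11).

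The aspartic and serine cathepsins followed Ctsl in direction. Ctsd stood at 19.0 and 23.4 CPM in mCherry SD mice, 155.5 and 149 CPM in mCherry HFD mice, 64.4 and 50.1 CPM in Tert HFD mice, and 32.2 and 31.4 CPM in TertCi HFD mice. The 4 groups did not overlap. Ctsd was 6.29-fold higher with diet (2.65, SE 0.24, edgeR adjusted p = 2.14e-05), 2.38-fold lower with Tert (-1.25, SE 0.17, edgeR adjusted p = 0.000777) and 4.26-fold lower with TertCi (-2.09, SE 0.18, edgeR adjusted p = 5.23e-05). Ctsa stood at 22.1 and 46.9 CPM in mCherry SD mice, 164 and 145.6 CPM in mCherry HFD mice, 74.2 and 43.0 CPM in Tert HFD mice, and 47.0 and 55.5 CPM in TertCi HFD mice. It was highest in the mCherry HFD mice, and the Tert HFD mice overlapped both of the lower groups. Its differences were 1.89 for diet (SE 0.29, edgeR adjusted p = 0.000961), -1.22 for Tert (SE 0.23, edgeR adjusted p = 0.00405) and -1.46 for TertCi (SE 0.24, edgeR adjusted p = 0.00134). The diet difference of Ctsa ran from 1.58 to 2.61 with single mice left out and was 1.55, not called, with nuclei thinned to 1000 UMIs (edgeR adjusted p = 0.0635), and its TertCi call was lost without mouse rep138 (edgeR adjusted p = 0.0515).

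The count of 8 cathepsins called for TertCi in macrophage-like nuclei was 3 without mouse rep138 and 5 without mouse rep128. The share of all genes called fell with the same mice left out, from 23.7% to 5.85% and 8.61%, so the lower counts are not a result about cathepsins. Counts given below without single mice are to be read in the same way. For each class the range of the share of all genes over single mice left out is given at the end, and not the share for each mouse. The 3 called without mouse rep138 were Ctsl, Ctsk and Ctsd, whose TertCi calls held under all 17 alternatives. The Tert count was 7 when libraries were scaled by their totals alone, where 4.02% of all genes were called higher and 12.0% lower, against 6.66% and 10.6% with TMM scaling.

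Between Tert HFD and TertCi HFD mice no cathepsin was called by edgeR in macrophage-like nuclei, nor was any gene (0% of genes tested, with 477, or 3.6%, at an unadjusted p under 0.05), and the smallest edgeR adjusted p of a cathepsin was 0.893. Without the filter on low counts edgeR called 37 genes, and without mouse rep136 it called 8, with no cathepsin among them, while DESeq2 called 0. At an unadjusted p under 0.05, 4 of the 9 cathepsins differed, Ctsd being 0.84 higher on the log2 scale in Tert HFD mice. Levels of Ctsb, Ctsd, Ctsk, Ctsl, Ctss and Ctsz were higher in each Tert HFD mouse than in either TertCi HFD mouse. The share of all genes that lay apart in this way was not counted, so this is a description and not a result about cathepsins. The 2 Tert forms are therefore given side by side below, without a claim that they act alike or differ. The same comparison called no cathepsin, and 0% of genes, in each other class and subset tested on its own. At an unadjusted p under 0.05 it gave 2 cathepsins in lipid-associated nuclei (3.45% of all genes), 5 in perivascular (5.25%), 3 in progenitor-like (4.46%), 1 in endothelial-like (6.08%) and 5 in adipocyte-like nuclei (6.3%). In the sum over all nuclei it gave 7 (8.99% of all genes), where DESeq2 called 3 (0.825% of all genes) and edgeR without the filter on low counts called 6 (1.45% of all genes).

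The balance among cathepsins shifted with diet in macrophage-like nuclei as a whole, which mix the subsets in parts that differ between groups. Ctsc made up 50.6 and 49.4% of all UMIs of the 9 genes in macrophage-like nuclei of mCherry SD mice, and was the largest share there. In mCherry HFD mice the largest share was that of Ctsb, at 29.2 and 30.9%. Ctsc was again first in both TertCi HFD mice, at 38.9 and 38.1%, and in mouse rep134 of Tert HFD at 36.0%, while mouse rep136 had Ctsb first at 33.7%. The summed level of the 9 cathepsins was 1824 and 1985 CPM in mCherry SD mice, 2771 and 2777 CPM in mCherry HFD mice, 2192 and 1654 CPM in Tert HFD mice, and 1833 and 1753 CPM in TertCi HFD mice. In perivascular nuclei alone, a subset described below, the mCherry HFD mice had Ctsc at 761 and 1070 CPM and Ctsb at 836 and 844 CPM. Shares compare summed tags of different genes, whose capture may differ, and are a description.

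The groups also differed in the share of nuclei with a Ctsl UMI. In macrophage-like nuclei thinned to 1000 UMIs each, 1.36 to 3.30% held a Ctsl UMI in mCherry SD mice, 25.1 to 25.9% in mCherry HFD mice, 4.11 to 6.29% in Tert HFD mice and 3.64 to 3.77% in TertCi HFD mice. Without thinning the shares were 7.48 to 13.2, 52.2 to 72.3, 6.73 to 28.8 and 13.2 to 14.2%. Thinning left out 24 macrophage-like nuclei of Tert HFD mice that were shallower. Median depths of these nuclei were 3904, 5686, 4734 and 3710 UMIs by group. In adipocyte-like nuclei, set beside them as a class of another lineage, the thinned shares were 0.731 to 1.22, 13.1 to 14.4, 2.05 to 2.10 and 1.16 to 1.34%, at median depths of 5055, 14037.5, 5096.5 and 6623 UMIs. The macrophage-like shares were above these in every group, and both classes had their highest shares in mCherry HFD mice.

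Sequence is shown for the cathepsins that hold the letters CACGTG in the 250 bases before an annotated start, because CACGTG is the core of the element through which the TFEB family of factors drives lysosomal genes. Whether a window acts as a promoter in these nuclei was not tested. Ctsc, Ctsk, Ctss and Ctsz do not hold it in their windows, and a link between these letters and the differences between groups was not tested. The windows are from RefSeq on GRCm38.p6, which is not the build named for the counts, and 7 of the 9 genes matched there with 8 windows. Ctsb and Ctsh were not matched. Each is written 5′ to 3′ on the gene's strand with CACGTG in capitals.
Ctsd, chr7:142387828-142388077, minus strand: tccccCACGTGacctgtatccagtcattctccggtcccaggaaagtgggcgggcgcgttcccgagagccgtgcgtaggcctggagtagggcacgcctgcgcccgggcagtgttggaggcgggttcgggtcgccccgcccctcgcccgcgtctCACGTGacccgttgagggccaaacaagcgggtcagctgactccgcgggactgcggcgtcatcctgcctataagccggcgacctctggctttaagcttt
Ctsl, chr13:64370521-64370770, minus strand: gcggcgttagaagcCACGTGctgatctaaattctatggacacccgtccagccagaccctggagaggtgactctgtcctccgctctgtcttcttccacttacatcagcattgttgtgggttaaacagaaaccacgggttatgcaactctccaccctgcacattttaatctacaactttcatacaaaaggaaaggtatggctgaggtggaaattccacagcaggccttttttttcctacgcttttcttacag
Ctsa, chr2:164833523-164833772, plus strand: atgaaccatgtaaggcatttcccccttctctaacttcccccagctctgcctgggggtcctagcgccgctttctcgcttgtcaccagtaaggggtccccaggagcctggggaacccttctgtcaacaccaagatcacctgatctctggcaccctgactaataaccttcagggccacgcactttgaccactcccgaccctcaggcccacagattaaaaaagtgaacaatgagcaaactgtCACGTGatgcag

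CACGTG stood 245 and 98 bases before the annotated start of Ctsd, 236 before that of Ctsl and 12 before that of the second of 2 Ctsa windows. It reads the same on both strands, and 6.02% of the 32851 windows of the table hold it. The letters GAGGAA or their reverse complement, a core bound by the macrophage factor PU.1, were in the windows of Ctsc, Ctsk and Ctss, and in 23.3% of all windows. GGGCGG, the GC box, was in those of Ctsc, Ctsd, Ctss and Ctsz and in 32.7% of all, TATAAA in that of Ctss and in 12.4% of all, and TGACTCA in no cathepsin window and in 4.46% of all, on either strand. GC content of the 8 windows ran from 43.2 to 67.2%, against a median of 52.4% over the table. Other starts were not searched, and a match is a description of the letters.

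Macrophage-like nuclei were divided into a lipid-associated and a perivascular subset by marker genes of each. Lipid-associated nuclei made up 6.36 ± 0.33% in mCherry SD mice, 79.2 ± 0.78% in mCherry HFD mice, 45.2 ± 23.2% in Tert HFD mice and 33.4 ± 4.31% in TertCi HFD mice (SD, n = 2 each) of the macrophage-like nuclei. A level in macrophage-like nuclei as a whole thus mixes the subsets in unequal parts. Ctsc, Ctsk and Ctsl were among the genes that defined these subclusters, so levels are given by subset as a description. Tests were run on the comparisons of groups within a subset. These 3 genes also helped to set which nuclei those comparisons use, and clustering without cathepsins was among the alternatives tried.

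Ctsc and Ctsh were lower in lipid-associated than in perivascular nuclei in all 6 mice on the high-fat diet, at ratios of 0.117 to 0.318 for Ctsc and 0.291 to 0.613 for Ctsh. Ctsd, Ctsl, Ctss and Ctsz were higher in lipid-associated nuclei in all 6, at ratios of 1.13 to 6.75, 1.49 to 2.76, 1.65 to 3.56 and 1.22 to 2.88. Ctsk was 3.07 to 18.4 times higher in 5 mice, and the sixth, mouse rep140, had no Ctsk UMI in perivascular nuclei. Ctsa was higher in 5 of 6 mice, at ratios of 0.737 to 1.89 over all 6, and Ctsb in 4 of 6, at 0.959 to 1.48.

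**Figure D2:**
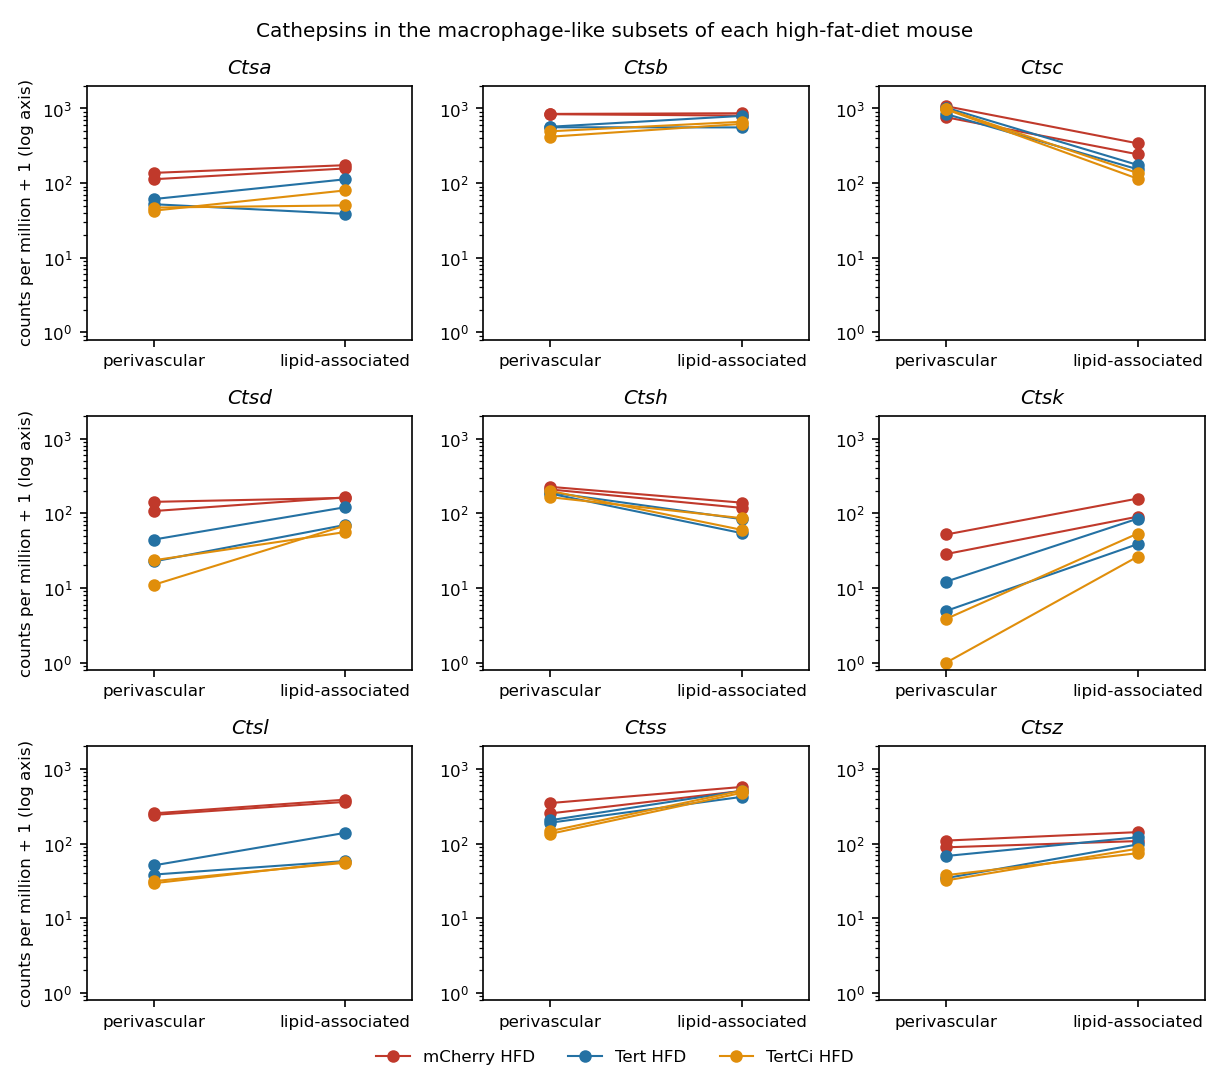
Cathepsin levels as CPM + 1 on a log axis in perivascular (left) and lipid-associated (right) nuclei of the 6 mice on the high-fat diet, with a line joining the points of a mouse and colours for the groups. In every mouse on the high-fat diet Ctsc lies higher in the perivascular subset and Ctsl in the lipid-associated subset, and Ctsl is highest in the mCherry HFD mice in both subsets.

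Different subclusters held each subset in different groups. Of 1906 nuclei in the main perivascular subcluster, 223 were from mCherry SD, 17 from mCherry HFD, 845 from Tert HFD and 821 from TertCi HFD mice. The perivascular nuclei of mCherry HFD mice lay mostly in 2 other subclusters, with 721 and 343 nuclei. Of 984 nuclei in the first lipid-associated subcluster, 611 were from Tert HFD, 347 from TertCi HFD and 12 from mCherry HFD mice. In 3 others, 401 of 458, 1838 of 1885 and 1783 of 1839 nuclei were from mCherry HFD mice. Ctsl stood at 37.2 CPM in the main perivascular subcluster and at 198.5 and 288 CPM in the 2 from mCherry HFD mice. It stood at 75.9 CPM in the first lipid-associated subcluster and at 291.5, 497 and 240.4 CPM in the other 3. Ctsc was 1014 and 1021 CPM in 2 of the 3 perivascular subclusters, 536 CPM in the other, and 97.0 to 471 CPM in the 4 lipid-associated ones. The lesser perivascular subcluster of mCherry HFD mice was a close call, with marker scores of 3.13 for perivascular and 3.00 for lipid-associated.

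Within perivascular nuclei, 7 of 9 cathepsins rose with diet, where 14.7% of all genes tested were called, and neither Ctsc nor Ctsh was called. Ctsl stood at 37.4 and 15.5 CPM in mCherry SD mice, 252.5 and 241 CPM in mCherry HFD mice, 49.9 and 37.4 CPM in Tert HFD mice, and 30.3 and 28.4 CPM in TertCi HFD mice. The mCherry HFD mice stood apart from all others, as in the whole class. Ctsl rose with diet by 3.27 (SE 0.31, edgeR adjusted p = 3.62e-05) on the log2 scale, and Ctsd by 2.81 (SE 0.41, edgeR adjusted p = 0.000671). The Ctsl difference ran from 2.51 to 3.85 with single mice left out. The Ctsk difference with diet was 5.04, but the standard-diet mice had 1 Ctsk UMI in all, and the ratio of summed counts was 44.7 with a 95% interval of 7.96 to 1770 that covers counting error only. The diet count was 3 without mouse rep128 or without mouse rep146, the calls of Ctsb, Ctsk, Ctss and Ctsz being lost in each case.

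With Tert, 5 cathepsins fell in perivascular nuclei and 11.9% of all genes were called, and with TertCi 7 fell and 19.4% of all genes were called. Among the 5, Ctsb (-0.48, edgeR adjusted p = 0.0414) lost its call without any 1 of the 8 mice. Ctsl differed by -2.34 (SE 0.23, edgeR adjusted p = 0.00024) and -2.92 (SE 0.24, edgeR adjusted p = 1.13e-05) for Tert and TertCi. Ctsk stood at 51.0 and 27.5 CPM in mCherry HFD mice, 11.2 and 3.93 CPM in Tert HFD mice, and 2.86 and 0 CPM in TertCi HFD mice. It fell by 4.02 (SE 0.60, edgeR adjusted p = 0.000456) with TertCi and by 2.03 (edgeR adjusted p = 0.0102) with Tert, the latter call being lost without mouse rep128, from which 327 of the 357 Ctsk UMIs of mCherry HFD mice came. The subcluster of close marker scores gave 316 Ctsk UMIs at 84.3 CPM, against 16.5 CPM in the other perivascular subcluster of mCherry HFD mice and 3.48 CPM in the main one. At a subcluster resolution of 0.8 the differences of Ctsk were 3.66 for diet and -1.73 for Tert, neither called (edgeR adjusted p = 0.0517 and 0.101), and -2.69 for TertCi. Without mouse rep138 the fitted TertCi difference was -9.31, with no Ctsk UMI left on that side. Without mouse rep128 the Tert count was 2. Ctsc overlapped between groups in perivascular nuclei. It stood at 973.5 and 1023 CPM in mCherry SD mice, 761 and 1070 CPM in mCherry HFD mice, 1022 and 840 CPM in Tert HFD mice, and 970 and 983 CPM in TertCi HFD mice. Its differences of -0.29 for diet and 0.23 for TertCi were not called (edgeR adjusted p = 0.271 and 0.367). Lipid-associated markers moved with these groups inside the perivascular subset: their sum was 293 to 394 CPM in mCherry SD, 1727 to 2571 CPM in mCherry HFD, 464 to 847 CPM in Tert HFD and 352 to 421.5 CPM in TertCi HFD mice, and their part in the cathepsin differences was not tested. Of the 8 markers, 5 to 8 were detected per mouse, with Fabp5, Spp1 or Gpnmb at 0 in some mice outside mCherry HFD. Macrophage markers in these nuclei summed to 1750 to 1903, 2895 to 3118, 1817 to 2496 and 2095 to 2402 CPM by group (Cd68 at 0 in a mCherry SD mouse). Progenitor markers summed to 183 to 197, 294 to 540.3, 96.4 to 207 and 93.5 to 130.3 CPM (Lum at 0 in a Tert HFD mouse), and their part was not tested either. Adipocyte markers in perivascular nuclei summed to 238 to 506, 62.3 to 95.2, 211 to 252 and 219 to 304 CPM by group, lowest in mCherry HFD mice. Median log2 fold changes of the 9 genes were 1.20, -0.75 and -1.36 for diet, Tert and TertCi, against 0.02, -0.01 and -0.03 over all genes.

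Lipid-associated nuclei of mCherry SD mice numbered 15 in all and were left out. Against mCherry HFD mice, 2 cathepsins fell with Tert (8.21% of all genes called) and 4 with TertCi (9.19% of all genes called). Marker sums moved with these groups within the subset: macrophage markers were at 2153 to 2223, 1185 to 1646 and 1016 to 1379 CPM in mCherry HFD, Tert HFD and TertCi HFD mice. Lipid-associated markers were at 5667 to 6236, 3543 to 4962 and 4153 to 4259 CPM (Fabp5 and Spp1 at 0 in a TertCi HFD mouse), and progenitor markers at 334 to 729, 183 to 221 and 81.7 to 139 CPM (Lum and Pi16 at 0 in a TertCi HFD mouse). Adipocyte markers went the other way, at 56.5 to 121 CPM in mCherry HFD, 210.5 to 304 CPM in Tert HFD and 191 to 310 CPM in TertCi HFD mice, with all 8 detected in each mouse. Their part in the result was not tested. Ctsl stood at 386 and 360 CPM in mCherry HFD mice, 97.6 ± 57.1 CPM in Tert HFD mice (mean ± SD, n = 2), and 54.3 and 56.3 CPM in TertCi HFD mice. It fell by 1.77 (SE 0.24, edgeR adjusted p = 0.00582) with Tert and by 2.62 (SE 0.28, edgeR adjusted p = 0.00399) with TertCi, and mouse rep134 of Tert HFD was the nearest to the mCherry HFD mice. Ctsh also fell with Tert (-0.75, SE 0.20, edgeR adjusted p = 0.0479), a call lost without any 1 of 5 of the 6 mice, with differences from -0.97 to -0.60.

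Ctsc stood at 242 and 340 CPM in lipid-associated nuclei of mCherry HFD mice, 174 and 152 CPM in Tert HFD mice, and 114 and 135 CPM in TertCi HFD mice. It was lower in TertCi HFD mice (-1.11, SE 0.21, edgeR adjusted p = 0.0137), whereas over macrophage-like nuclei as a whole it was higher there. Ctsd fell by 1.30 (SE 0.22, edgeR adjusted p = 0.0106) and Ctsa by 1.34 (SE 0.35, edgeR adjusted p = 0.0442) with TertCi. Ctsk stood at 157 and 89.3 CPM in mCherry HFD mice, 83.8 and 37.7 CPM in Tert HFD mice, and 52.6 and 25.3 CPM in TertCi HFD mice, and its TertCi difference of -1.37 was not called (edgeR adjusted p = 0.0510). Ctss ranged from 420.0 to 571 CPM in the 3 groups and overlapped between them. No cathepsin was called for TertCi without mouse rep138 or without mouse rep140, although the Ctsl difference then still lay between -2.68 and -2.54. Without mouse rep134 the Tert count was 4, and without mouse rep136, rep138 or rep140 it was 1. Median log2 fold changes were -0.69 for Tert and -1.11 for TertCi, against -0.01 and -0.03 over all genes.

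The difference between the subsets was tested itself, as an interaction of subset and group. For TertCi, 6 cathepsins passed (5.73% of all genes tested passed). The Ctsc difference was 1.40 lower in lipid-associated than in perivascular nuclei (edgeR adjusted p = 2.75e-09). Those of Ctsk, Ctsd, Ctsz, Ctss and Ctsb were 2.65, 1.18, 0.94, 0.94 and 0.47 higher in lipid-associated nuclei. With single mice left out the Ctsk term ran from 2.50 to 8.22, its TertCi side in perivascular nuclei resting on 8 UMIs in mouse rep138 and 0 in mouse rep140. Its call was lost without mouse rep138, at subcluster resolution 0.8 and with nuclei thinned to 1000 UMIs. The lowest value of the Ctsk term over all alternatives was 1.28. The Ctsd term ran from 0.91 to 2.44, its call being lost without mouse rep128, and the Ctsb call was kept under 8 of 16 alternatives. Those of Ctsk, Ctsd, Ctsz and Ctsb were negative in both subsets and less so there, while that of Ctss was 0.03 in lipid-associated and -0.97 in perivascular nuclei. Mouse was a block in this fit, since each mouse gave both sums. For Tert, 4 passed (3.04% of all genes): Ctsc at -0.88 (edgeR adjusted p = 4.65e-05), Ctsd at 1.10, Ctsk at 1.22 and Ctsl at 0.68. That of Ctsl ran from 0.12 to 0.81 with single mice left out, and its call was kept under 7 of 16 alternatives. Only the TertCi terms of Ctsc and Ctss passed under all 16 alternatives. The Tert count was 1 without mouse rep134 or mouse rep128, and the TertCi count was 3 without mouse rep138 or mouse rep128. Between Tert and TertCi the interaction passed for no cathepsin and for 0.369% of all genes. At an unadjusted p under 0.05 it gave 3 cathepsins and 6.42% of all genes.

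The levels of each mouse were also averaged with equal weight on the 2 subsets, a calculation chosen after the values were seen, and are given as a description. Ctsc was at 603 ± 143.7 CPM in mCherry HFD, 547 ± 72.1 CPM in Tert HFD and 550 ± 12.4 CPM in TertCi HFD mice (SD, n = 2 each). Ctsl was at 310 ± 13.3, 70.6 ± 33.0 and 42.3 ± 0.03 CPM, and Ctsd stood at 142.5 ± 11.5 CPM in mCherry HFD and 63.5 ± 25.7 CPM in Tert HFD mice.

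Outside macrophages, cathepsin RNA was counted in progenitor-like nuclei, the fibroblast-like precursors of adipocytes. There 8 of 9 cathepsins rose with diet, 6 fell with Tert and all 9 fell with TertCi, where 12.3, 10.1 and 18.8% of all genes tested were called. Ctsl stood at 25.3 and 14.9 CPM in mCherry SD mice, 127 and 145 CPM in mCherry HFD mice, 33.0 and 20.4 CPM in Tert HFD mice, and 18.2 and 17.4 CPM in TertCi HFD mice. As in macrophage-like nuclei, both mCherry HFD mice were far above the other 6. Ctsl rose by 2.62 (SE 0.29, edgeR adjusted p = 0.000935) with diet and fell by 2.11 with Tert and 2.70 with TertCi. The median log2 fold changes were 1.81, -1.12 and -1.41, against 0.01, -0.02 and -0.03 over all genes.

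**Figure D3:**
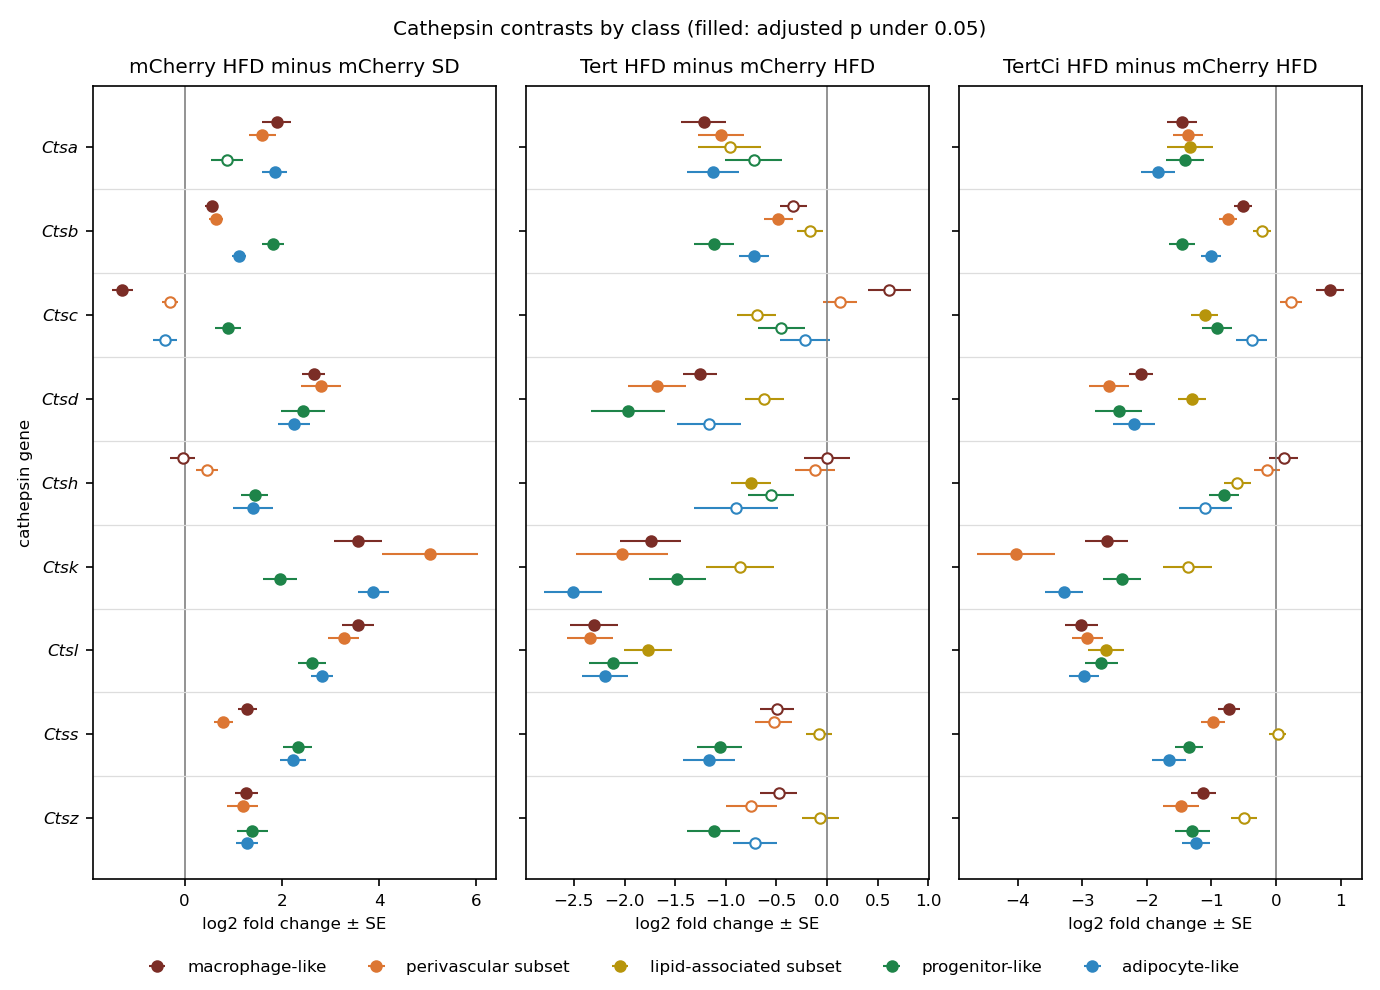
Log2 fold change of each cathepsin for diet, Tert and TertCi in macrophage-like nuclei, both subsets, progenitor-like and adipocyte-like nuclei, with bars of 1 standard error to each side. Filled points have an edgeR adjusted p under 0.05, and the horizontal scale differs between panels. Lipid-associated nuclei have no diet comparison. Ctsl lies left of 0 for both Tert forms in every class shown, and right of 0 for diet in every class with that comparison.

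Ctsb, in progenitor-like nuclei, stood at 32.3 and 36.8 CPM in mCherry SD mice, 118 and 168 CPM in mCherry HFD mice, 60.4 and 55.4 CPM in Tert HFD mice, and 45.4 and 42.6 CPM in TertCi HFD mice. It rose by 1.81 with diet (SE 0.23, edgeR adjusted p = 0.00144), and fell by 1.12 with Tert and 1.45 with TertCi. Ctss, at 11.2 and 8.61 CPM in mCherry SD mice, was 54.8 and 56.8 CPM in mCherry HFD mice, 24.7 and 22.8 CPM in Tert HFD mice, and 18.5 and 19.1 CPM in TertCi HFD mice. Ctsk was 7.03 and 10.2 CPM, 42.3 and 37.5 CPM, 12.1 and 14.7 CPM, and 7.50 and 5.05 CPM in the same group order, and differed by 1.97, -1.48 and -2.38. For these 3 genes the mCherry HFD mice were above all others. Below them came Tert HFD mice, and the TertCi HFD mice were above the standard-diet mice for Ctsb and Ctss but not for Ctsk.

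Ctsc stood at 26.7 and 26.6 CPM in mCherry SD mice, 48.7 and 68.6 CPM in mCherry HFD mice, 43.0 and 30.1 CPM in Tert HFD mice, and 27.4 and 24.1 CPM in TertCi HFD mice of the progenitor-like class. The Ctsc rise of 0.90 with diet (SE 0.27, edgeR adjusted p = 0.0471) is loosely held: it kept its call under 7 of 17 alternatives, lost it without any 1 of 6 mice, and turned to -0.71 when every cluster was given to its best class. Without mouse rep146, rep144 or rep128 the diet count was 4, 5 and 5. The Tert count was 2 without mouse rep128 and 3 without mouse rep134 or rep129, and the TertCi count was 5 without mouse rep138.

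Macrophage markers in the progenitor-like nuclei moved with the groups as the cathepsins did. Their sum was 114 to 119 CPM in mCherry SD, 328 to 354 CPM in mCherry HFD, 133 to 172 CPM in Tert HFD and 117 to 131 CPM in TertCi HFD mice, which is 6.26 to 15.2% of the macrophage-like level over the 8 mice. At least 6 of the 8 markers were detected in each mouse, and Cd68 or C1qa was at 0 in some mCherry SD and TertCi HFD mice. Ctsl in progenitor-like nuclei was 35.8 to 92.3% of its level in macrophage-like nuclei of the same mouse, Ctsk 32.0 to 222%, Ctsa 16.1 to 69.9%, Ctsz 19.4 to 36.6%, Ctsh 15.6 to 58.2% and Ctsd 8.92 to 37.1%. Ctsb, at 6.51 to 19.6%, Ctss, at 5.02 to 12.8%, and Ctsc, at 2.71 to 13.4%, lay in about the range of the markers. Lipid-associated markers in progenitor-like nuclei summed to 268.5 to 303.5, 709 to 868, 427.5 to 477.5 and 293 to 383 CPM by group (Atp6v0d2, Fabp5, Spp1 or Trem2 at 0 in some mice outside mCherry HFD). Adipocyte markers went the other way, at 204 to 539, 53.2 to 87.9, 205 to 275 and 184.5 to 295 CPM. The part of RNA from these other cells in the results was not tested.

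The diet and Tert-form differences were compared between macrophage-like and progenitor-like nuclei by an interaction. For diet, 3 cathepsins passed (5.42% of all genes): the Ctsc difference was 2.19 lower in macrophage-like nuclei (edgeR adjusted p = 5.87e-05), that of Ctsh 1.5 lower and that of Ctsb 1.22 lower. When every cluster was given to its best class, none of these 3 was called, and they were -0.54, -0.81 and -0.60 (edgeR adjusted p = 0.322, 0.178 and 0.184). For TertCi, 3 passed (4.31% of all genes): Ctsc at 1.80 (edgeR adjusted p = 0.000118), Ctsh at 0.98 and Ctsb at 0.95. For Tert, 1 passed (2.18% of all genes), Ctsc at 1.16 (edgeR adjusted p = 0.00657). Between Tert and TertCi no cathepsin and 0% of genes passed by edgeR, with 1 cathepsin and 3.26% of all genes at an unadjusted p under 0.05. Ctsl passed in none of these, its diet differences being 3.57 in macrophage-like and 2.62 in progenitor-like nuclei. Without mouse rep146 the diet count was 1, without mouse rep138 the TertCi count was 1, and the Tert count was 0 without mouse rep134 and 2 without mouse rep128.

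In adipocyte-like nuclei 8 cathepsins rose with diet, 5 fell with Tert and 7 fell with TertCi, where 24.2, 3.40 and 18.8% of all genes tested were called. The mCherry HFD side of these comparisons rests on 297 and 111 nuclei, against 863 to 2232 per mouse in the other groups. Their median depth was 14037.5 UMIs, against 5055 to 6623 UMIs by group in the others. Ctsk stood at 2.07 and 1.95 CPM in mCherry SD mice, 43.5 and 33.6 CPM in mCherry HFD mice, 6.42 and 4.62 CPM in Tert HFD mice, and 3.09 and 2.55 CPM in TertCi HFD mice. Ctsl stood at 15.9 and 13.1 CPM, 141 and 131 CPM, 26.8 and 21.3 CPM, and 14.3 and 10.3 CPM in the same group order. Neither gene overlapped between the mCherry HFD mice and any other group. Ctsk rose by 3.88 (SE 0.32, edgeR adjusted p = 0.000366) and Ctsl by 2.83 (SE 0.23, edgeR adjusted p = 0.000366) with diet, and they fell by 2.51 and 2.19 with Tert and by 3.28 and 2.97 with TertCi. Ctsc stood at 132 and 147 CPM in mCherry SD mice, 125 and 157 CPM in mCherry HFD mice, 128.2 and 69.3 CPM in Tert HFD mice, and 62.8 and 89.6 CPM in TertCi HFD mice, and was called in no comparison.

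The Tert count in adipocyte-like nuclei was 0 without mouse rep128 or mouse rep129, 1 without mouse rep136 and 3 without mouse rep134 or mouse rep146, and the TertCi count was 2 without mouse rep128. Differences of Ctsl for Tert lay between -2.2 and -2.13 when single mice were left out. The medians over the 9 cathepsins were 1.85, -1.13 and -1.65, against 0.04, -0.02 and -0.03 over all genes. Macrophage markers summed to 266 to 332 CPM in mCherry SD, 666 to 682 CPM in mCherry HFD, 265 to 464 CPM in Tert HFD and 277 to 405 CPM in TertCi HFD adipocyte-like nuclei, 15.6 to 28.6% of the macrophage-like level, with Cd68 at 0 in a mCherry SD mouse and at least 7 of the 8 markers detected in each. Progenitor markers there summed to 508 to 681, 1084 to 1868, 629 to 1051 and 316.5 to 548 CPM by group, with all 8 detected. Lipid-associated markers summed to 728 to 978, 1722 to 2173, 700.3 to 1449 and 873 to 889.7 CPM (Spp1 at 0 in a mCherry SD mouse). The part of these markers' cells in the result was not tested. Ctsl there was 26.6 to 81.2% of its macrophage-like level.

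**Figure D4:**
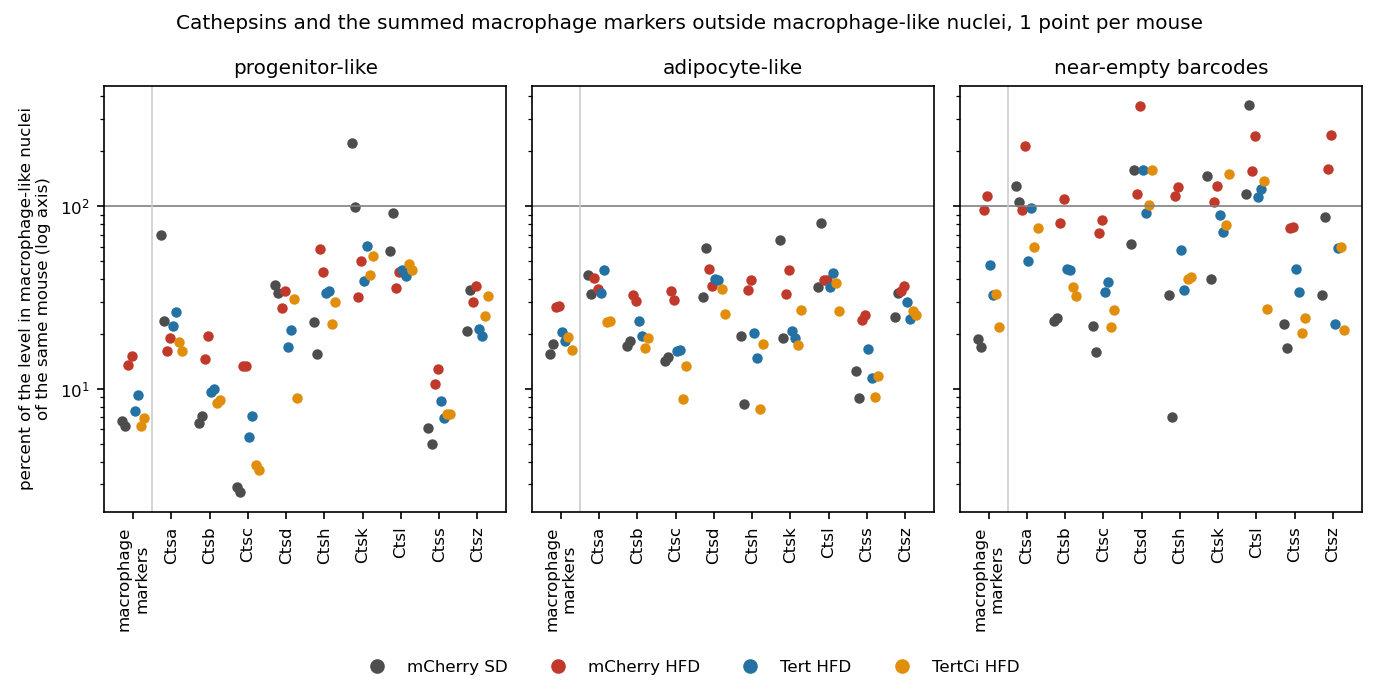
Levels of cathepsins and of summed macrophage markers in progenitor-like and adipocyte-like nuclei and in near-empty barcodes, as a percentage of the macrophage-like level of the same mouse on a log axis, with 1 point per mouse coloured by group and a line at 100%. Ctsl lies at 35.8 to 92.3% in progenitor-like nuclei, where the summed macrophage markers lie at 6.26 to 15.2%.

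In endothelial-like nuclei 3 cathepsins were called for diet, 6 fell with Tert and 7 fell with TertCi, where 2.99, 9.0 and 16.6% of all genes tested were called. Only mouse rep146 had enough endothelial-like nuclei among the mCherry SD mice, so the diet comparison sets 1 mouse, assumed to vary like the others, against 2 and has no replicate check on that side. It had 2 Ctsl UMIs there, and the ratio of summed Ctsl counts was 17.2 (95% interval 4.74 to 142, counting error only). The fitted diet differences of Ctss and Ctsc were 2.28 and -1.57, and that of Ctsc was not called with thinned nuclei, without mouse rep128 or with 1000 UMIs as the minimum, where it was -0.40. Ctsk had no UMI in mouse rep146 and was at least 2.76-fold higher in mCherry HFD mice, against a floor of 3 counts in that library. Ctsl fell by 2.73 with Tert and by 3.45 with TertCi. The fitted differences of Ctsk, -2.70 and -3.49, rest on 12 UMIs in Tert HFD and 6 in TertCi HFD mice, with 0 in rep136 and rep140. Leaving out single mice moved them from -8.35 to -2.13 and from -8.42 to -2.89, with the Tert call lost without rep134 or rep128 and the TertCi call without rep128 and with DESeq2. Macrophage markers were high in this class, at 1070 CPM in mouse rep146, 1376 to 1689 CPM in mCherry HFD, 773 to 1055 CPM in Tert HFD and 696 to 875 CPM in TertCi HFD mice. This is 33.2 to 69.4% of their macrophage-like level, with at least 7 of the 8 markers detected and Cd68 alone at 0 in some mice. Perivascular markers in this class summed to 4436 CPM in mouse rep146, 1483 to 1492 CPM in mCherry HFD, 2281 to 2833 CPM in Tert HFD and 1855 to 2837 CPM in TertCi HFD mice. Lipid-associated markers summed to 531, 3104 to 4096, 629.5 to 1111 and 687 to 818 CPM in the same order, with Trem2, Spp1 or Fabp5 at 0 in some mice outside mCherry HFD. The class's own endothelial markers summed to 2778, 2409 to 3104, 3644 to 3749 and 3696 to 4668 CPM. The part of macrophage RNA in the cathepsin values was not tested. Without mouse rep128 the counts were 1, 1 and 3 for diet, Tert and TertCi, and without mouse rep138 the TertCi count was 4. Medians over the cathepsins were 1.84, -1.37 and -1.74, against 0.08, 0.00 and 0.00 over all genes.

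Barcodes of 10 to 100 UMIs, taken here as free RNA, also carried cathepsins. Of a library's UMIs they held 6.109 and 0.372% in mCherry SD and 0.114 and 9.373% in mCherry HFD libraries. The values were 0.11 and 12.955% in Tert HFD and 0.271 and 0.737% in TertCi HFD libraries. The window thus took in unlike parts of the libraries, also within a group, and whether it stands for the free RNA of each was not tested. Ctsl stood there at 51.8 and 57.5 CPM in mCherry SD libraries, 554.5 and 804 CPM in mCherry HFD libraries, 83.3 and 61.7 CPM in Tert HFD libraries, and 51.5 and 10.6 CPM in TertCi HFD libraries, from 3 to 2083 UMIs. The mCherry HFD libraries were again above the other 6. Ctsl in near-empty barcodes was 27.4 to 357% of its macrophage-like level and Ctsd 62.1 to 353%, while the summed macrophage markers were 16.9 to 114%. Ctsc, at 204.5 and 156 CPM in mCherry SD libraries, was 258 and 429 CPM in mCherry HFD, 268.5 and 163 CPM in Tert HFD, and 154 and 181 CPM in TertCi HFD libraries. In the mCherry HFD libraries Ctsl was at 156 and 242% of its macrophage-like level, Ctsd at 117 and 353%, and Ctsz at 161 and 246%. Ctsa was at 95.9 and 213%, Ctsb at 80.9 and 110%, Ctss at 76.5 and 77.0%, and Ctsc at 71.1 and 83.7%. The part of free RNA in the levels was not tested for any class, macrophage-like nuclei and their subsets included.

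Summed over all nuclei of a mouse, 8 cathepsins rose with diet and 8 fell with each Tert form, where 40.7, 21.8 and 35.5% of all genes tested were called. Ctsc was the exception, with differences of 0.02, -0.08 and -0.43, none called. Ctsl stood at 22.5 and 14.0 CPM in mCherry SD mice, 253 and 247 CPM in mCherry HFD mice, 39.2 and 27.8 CPM in Tert HFD mice, and 17.9 and 13.2 CPM in TertCi HFD mice. Differences for diet, Tert and TertCi were 3.31, -2.56 and -3.53 for Ctsl, 4.28, -2.39 and -3.54 for Ctsk, and 2.87, -1.61 and -2.68 for Ctsd. Without mouse rep128 the Tert count was 5. The macrophage-like share of nuclei was 4.24 ± 0.94, 49.4 ± 0.71, 24.7 ± 0.71 and 14.7 ± 3.04% by group (SD, n = 2), and in such sums fewer nuclei of a class and less RNA per nucleus cannot be told apart. Macrophage-like nuclei gave 4.02 and 3.24% of all Ctsl UMIs in mCherry SD mice, 58.5 and 50.1% in mCherry HFD mice, 31.4 and 29.7% in Tert HFD mice, and 24.0 and 18.8% in TertCi HFD mice. Nuclei of clusters with markers of more than 1 class, which entered no class, gave 67.8 and 54.9% of them in mCherry SD mice and 14.5 to 32.0% in the other 6. Medians over the cathepsins were 2.2, -1.24 and -1.91, against 0.05, -0.05 and -0.10 over all genes.

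The genes that carry, restrain and use cathepsins were followed from lists drawn up for the pathway, in macrophage-like nuclei. Of 12 genes for sorting and activation of lysosomal enzymes, all were tested, 3 rose with diet, 3 fell with Tert and 2 fell with TertCi, with medians of 0.53, -0.32 and -0.59. Of all genes 20.5, 17.3 and 23.7% were called for diet, Tert and TertCi, so these counts are near the background. Igf2r, the large mannose phosphate receptor that delivers cathepsin precursors, stood at 11.3 ± 2.61 CPM in mCherry SD, 571 ± 72.8 CPM in mCherry HFD, 78.8 ± 30.6 CPM in Tert HFD and 55.0 ± 6.68 CPM in TertCi HFD mice (SD, n = 2 each). It differed by 5.43 with diet (SE 0.31, edgeR adjusted p = 2.77e-06) and by -2.68 with Tert and -3.19 with TertCi. The noncoding gene Airn overlaps Igf2r on the other strand, and with the strand of the counting not given in the sources used here their reads cannot be told apart. Psap, whose product activates lipid-degrading hydrolases and has its own route to the lysosome, stood at 229 ± 37.1, 1051 ± 17.0, 614 ± 13.9 and 478 ± 28.1 CPM (SD, n = 2 each), and differed by 2.03, -0.62 and -0.97. Gnptab, the enzyme that makes the mannose phosphate tag, rose by 1.12 with diet.

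Of 16 genes of cathepsin inhibitors, 5 were tested. With diet 2 rose, and 3 fell with Tert and 4 with TertCi (20.5, 17.3 and 23.7% of all genes were called), with medians of 2.16, -1.48 and -1.41. Cstb, the inhibitor of cysteine cathepsins in the cytosol, stood at 3.05 ± 0.16, 43.5 ± 3.30, 13.2 ± 1.30 and 8.59 ± 1.19 CPM (SD, n = 2 each), and differed by 3.70 with diet (SE 0.51, edgeR adjusted p = 0.000413) and by -2.24 with TertCi. The mCherry SD mice had 3 Cstb UMIs in all, and the ratio of summed counts was 15 (95% interval 5.13 to 72.9). Cst3, the secreted cystatin C, stood at 23.4 ± 6.26, 122 ± 1.12, 36.2 ± 31.3 and 36.4 ± 27.7 CPM (SD, n = 2 each), and differed by 2.16 (edgeR adjusted p = 0.0219) and -1.41, its mice with a Tert form being far apart. Slpi, a secreted inhibitor of serine proteases, stood at 15.7 ± 10.9 CPM in mCherry HFD and 0.524 ± 0.741 CPM in TertCi HFD mice (SD, n = 2 each). The TertCi HFD mice had 1 Slpi UMI, the ratio of summed counts to mCherry HFD mice was 0.0199 (95% interval 0.000501 to 0.111), and the fitted difference was called (edgeR adjusted p = 0.0055).

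Of 10 genes of lysosome regulation and membrane, all were tested. With diet 3 rose (Npc2 by 0.99, Tfeb by 0.70 and Lamp1 by 0.68) and Tfec fell by 1.19. Npc2 carries cholesterol out of the lysosome, Lamp1 coats its membrane, and Tfeb and Tfec belong to the family of factors that binds CACGTG. With TertCi 4 fell, Tfe3, Npc2, Npc1 and Lamp1 by 0.87, 0.80, 0.71 and 0.61, and with Tert 1 rose and 2 fell. Of all genes 20.5, 17.3 and 23.7% were called for diet, Tert and TertCi, and the list's medians were 0.48, 0.02 and -0.04. Of 14 other cathepsins 3 were tested, Ctse, Ctso and Ctsf, and edgeR called none in any of the 3 comparisons. Ctsf was the one of them at an unadjusted p under 0.05, at -1.70 with TertCi (edgeR adjusted p = 0.0593).

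Of 13 genes of cathepsin substrates and partners 8 were tested. With diet 3 rose, and 4 fell with Tert and 4 with TertCi (20.5, 17.3 and 23.7% of all genes were called), with medians of 0.90, -0.95 and -0.97. Those that rose were matrix genes. Col1a1, the main chain of type I collagen, stood at 6.94 ± 3.60, 54.0 ± 17.3, 7.71 ± 0.16 and 3.60 ± 0.84 CPM (SD, n = 2 each) and differed by 2.98 with diet and -3.86 with TertCi, Col1a2 by 1.95 and -2.46, and Bgn by 2.64 and -2.06. Bgn had 2 UMIs in mCherry SD mice, and the ratio of summed counts was 6.32 (95% interval 1.74 to 52.4). Cd74, the invariant chain cut by cathepsin S, and the MHC class II genes H2-Aa and H2-Ab1 were not called. Collagens are made by progenitors, Col1a1 is itself among the 8 progenitor markers used, and those markers in the macrophage-like nuclei, all 8 detected in each mouse, summed to 192 to 196 CPM in mCherry SD, 324 to 684.5 CPM in mCherry HFD, 149 to 211 CPM in Tert HFD and 89.1 to 133 CPM in TertCi HFD mice. The part of progenitor RNA in these values was not tested.

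Likeness of pattern was measured as Pearson's r of log2 levels over 40 sums of 8 classes and 8 mice, among 6786 genes. The sums share libraries and depth, and r describes them. The most alike genes were Cybb at 0.979 for Ctsb, Cd84 at 0.984 for Ctss, Mrc1 at 0.971 for Ctsc, Lipa at 0.952 for Ctsz, Pirb at 0.951 for Ctsa, Ftl1 at 0.94 for Ctsl, Rbbp8 at 0.936 for Ctsh, Lgals3 at 0.917 for Ctsd and Anxa1 at 0.872 for Ctsk. Mrc1 encodes the mannose receptor and is a perivascular macrophage marker, and Lgals3 encodes a galectin made in quantity by macrophages. Among the cathepsins themselves Ctsb and Ctss were most alike, at 0.961, and Ctsc and Ctsk least, at -0.12.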

How the data were processed

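Nuclei of snap-frozen visceral white adipose tissue were sorted by DAPI and sequenced with 10x Chromium 3′ kits, per the labels' protocols. The deposited matrices hold raw UMI counts per gene and barcode. Per the file headers they were made with Cell Ranger 7.1.0, whereas the submitters' processing notes name Cell Ranger 5.0.1, bcl2fastq 2.20.0 and mm39. The gene annotation, strand and counting of introns are not given in the sources used here. The members and lists were chosen with earlier results of these data known.

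Barcodes were kept as nuclei at 500 UMIs or more and at 0.1 of the 99th percentile of the 5000 largest, given 300 genes or more and no more than 5% of UMIs from mitochondria. Thresholds came to 987 to 4705 UMIs, and total UMIs per library were 23378488 to 139749876. Expected doublets (0.8% per 1000 nuclei) were removed by score, 1.592 to 6.35% of a library. Pairs of libraries shared 0 to 14 barcodes. Counts were scaled to 10000, and 2000 variable genes, 30 components, 15 neighbours and resolution 1.0 gave 31 clusters with scanpy 1.11.5 (numpy 2.4.6, scipy 1.17.1, Python 3.11.15). A cluster was named from marker lists when at least 3 markers were raised 2-fold (offset 5 CPM) in at least 5% of nuclei with a score of at least 1. The 12 clusters with a second class at 0.5 or more of the leading score were called mixed and left out of classes. Ctsc and Ctsk were among the variable genes, and Ctsc, Ctsk and Ctsl among those of the 5 macrophage-like clusters, which were subclustered at resolution 0.5. Marker levels there were measured against the lowest subcluster, a rule set after subcluster marker levels were seen and before the cathepsin comparisons were run.

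Raw counts were summed per mouse and class (at least 20 nuclei) and fitted over all groups of a class in 1 model with edgeR 4.0.16 (limma 3.58.1, R 4.3.3), without covariates (the interaction fits had mouse as a block), after filterByExpr and TMM scaling. Log2 fold changes carry standard errors, and calls use an adjusted p under 0.05. Genes were named from the lists as the 3 largest called differences in the diet and TertCi comparisons. Alternatives were DESeq2 1.42.0, RLE size factors in edgeR, library totals, no filter, 1000 UMIs as minimum, no doublet removal, thinning to 1000 UMIs, clustering without cathepsins, each cluster given to its best class, subclustering at 0.8 and leaving out each mouse. Intervals and floors (3 counts, 95%) cover counting error only. The code was tested on simulated data. Replicate libraries differed by more than sampling noise (chi-square per degree of freedom 15.1 to 122).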

Additional observations from a re-analysis of the deposited data

Results flagged for a closer look

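These differences of log2 fold changes between nuclei of 2 kinds passed the interaction test of edgeR (adjusted p under 0.05), and no explanation was weighed. Between lipid-associated and perivascular nuclei, with Tert, they were 1.10 for Ctsd, 0.68 for Ctsl, 1.22 for Ctsk and -0.88 for Ctsc. That of Ctsl was 0.12 with 1 mouse left out, and its call was kept under 7 of 16 alternatives. With TertCi they were 1.18 for Ctsd, 0.94 for Ctsz, 0.47 for Ctsb, 2.65 for Ctsk, -1.40 for Ctsc and 0.94 for Ctss. Ctsk in perivascular nuclei of TertCi HFD mice rests on 8 UMIs in mouse rep138 and 0 in mouse rep140. Its difference with TertCi was 1.28 at the lowest over the alternatives, and the call was kept under 13 of 16. Between macrophage-like and progenitor-like nuclei, with diet, they were -1.22 for Ctsb, -2.19 for Ctsc and -1.50 for Ctsh. With Tert the difference was 1.16 for Ctsc, and with TertCi 0.95 for Ctsb, 1.80 for Ctsc and 0.98 for Ctsh. Ctsc was flagged in all 5 of these tests, which share the mCherry HFD mice and are not independent of each other. Between the subsets its call was kept under 14 of 16 alternatives for Tert and 16 of 16 for TertCi. Against progenitor-like nuclei it was kept under 16 of 17 for diet, 13 of 17 for Tert and 17 of 17 for TertCi. In the tests against progenitor-like nuclei, the macrophage-like sums mix the subsets in shares that differ between groups, and the part of this was not tested.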

How the results depend on the processing

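No paired analysis was possible because the replicate numbers are mouse numbers that no 2 groups share (interactions of classes had mouse as a block). Values under alternatives were tallied for 176 cathepsin results. These are all results for diet, Tert and TertCi in macrophage-like nuclei, both subsets and progenitor-like nuclei. From the other classes, all nuclei and the interactions only called results were entered, and none for Tert against TertCi, so calls gained there are not in the tally. Of 2942 values, 2600 kept direction and side of the threshold, 273 lost a call, 42 gained one and 27 turned sign. The causes were not tested. Turned values of Ctsh in macrophage-like nuclei were, for diet, 0.112 (library totals), 0.0292 (doublets kept), 0.286 (thinned), 0.175 (1000 UMIs), 0.0298 (without mouse rep128), and without single mice they ran from -0.393 to 0.599 (without rep146). For Tert they were 0.0327 (no filter), 0.00492 (cathepsins left out of clustering), 0.0572, 0.238, 0.0646, 0.0521 and 0.0553 (without rep140, rep136, rep129, rep144 and rep146, in a range from -0.253), and for TertCi -0.0589 (totals), -0.275 (thinned) and -0.00562 (1000 UMIs). Perivascular Ctsh with TertCi was 0.0191 without rep138, in a range from -0.236. Perivascular Ctsc was -0.107 and -0.112 for Tert and -0.0554 and -0.0138 for TertCi (resolution 0.8, and without rep128), in ranges up to 0.373 and 0.474. Lipid-associated Ctsz and Ctss with Tert were 0.153 and 0.00826 without rep128, in ranges from -0.246 and -0.166, and Ctss with TertCi was -0.138, -0.0283 and -0.0668 (totals, no filter, without rep129), in a range up to 0.107. Progenitor-like Ctsc with diet was -0.711 with best classes.

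Counts of cathepsins called moved as follows, with the share of all genes called at the same setting in parentheses. With DESeq2 they were 3 (1.68%) and 3 (3.99%) in endothelial-like nuclei for Tert and TertCi, 3 for Tert in perivascular (5.39%) and 1 in lipid-associated nuclei (5.92%), 1 (0.686%) and 3 (2.23%) for the subset interaction with Tert and TertCi, and 3 (0.825%) for Tert against TertCi over all nuclei. Thinning gave 1 for Tert in adipocyte-like nuclei (1.56%), 1 (0.879%), 3 (4.11%) and 4 (7.19%) for diet, Tert and TertCi in endothelial-like nuclei, 0 (1.55%) and 2 (2.8%) for the subset interaction, 2 (7%) for diet in perivascular and 4 (6.72%) in progenitor-like nuclei, and 1 (2.52%) for the TertCi interaction of macrophage-like with progenitor-like nuclei. With no filter the counts were 6 (5.6%) for Tert in lipid-associated nuclei and 6 (1.45%) for Tert against TertCi over all nuclei. With 1000 UMIs as minimum they were 7 (14.4%) for diet in endothelial-like nuclei, 6 (13.6%) for Tert in lipid-associated nuclei, and 6 (9.77%) and 0 (4.21%) for the interaction with progenitor-like nuclei for diet and Tert. With best classes they were 8 (10.3%) for diet in endothelial-like nuclei, and 0 (2.55%) and 0 (1.45%) for that interaction. Resolution 0.8 gave 1 (7.75%) for Tert in lipid-associated nuclei, and 1 (0.581%) and 2 (1.9%) for the subset interaction. Leaving cathepsins out of clustering gave 2 (1.28%) for Tert in adipocyte-like nuclei, and library totals gave 7 (16.1%) for Tert in macrophage-like nuclei.

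Leaving out each mouse in turn, counts for diet, Tert and TertCi ranged from 6 to 8 (5.58 to 27.2% of all genes), 3 to 6 (5.52 to 18.1%) and 3 to 8 (5.85 to 30.2%) in macrophage-like nuclei, 3 to 7 (3.66 to 17%), 2 to 5 (3.47 to 11%) and 6 to 7 (6.78 to 21.6%) in perivascular, 4 to 8 (3.21 to 14.2%), 2 to 6 (1.32 to 10.8%) and 5 to 9 (4.49 to 21.8%) in progenitor-like, 6 to 8 (3.16 to 25.4%), 0 to 5 (0 to 9.59%) and 2 to 8 (0.287 to 20.7%) in adipocyte-like, 1 to 3 (1.33 to 3.9%), 1 to 6 (0.924 to 10.5%) and 3 to 7 (2.76 to 18.7%) in endothelial-like, and 8 to 8 (18.4 to 41.7%), 5 to 8 (3.89 to 23.2%) and 7 to 8 (11.5 to 36.4%) in all nuclei. For Tert and TertCi they ranged from 1 to 4 (3.31 to 14.9%) and 0 to 5 (0 to 16.3%) in lipid-associated nuclei and from 1 to 5 (1.01 to 3.65%) and 3 to 6 (2.3 to 6.82%) for the subset interaction. The interaction with progenitor-like nuclei ranged from 1 to 4 (0.915 to 8.95%), 0 to 2 (0.262 to 5.9%) and 1 to 3 (0.701 to 6.9%). Tert against TertCi stayed at 0 to 0 in every class (0 to 0.255%). A sample left alone in a group was assumed to vary like the others. Depth limits several standard-diet values: Ctsk rested on 8 UMIs in macrophage-like, 1 in perivascular and 0 in endothelial-like nuclei.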
